A study of Mus musculus with 2 samples.

Results

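Integrins are adhesion receptors made of an alpha and a beta chain, and 4 integrin alpha chain genes and 1 gene for a protein that binds the tail of a beta chain were compared between 2 mouse mesoangioblast clones. The genes were Itga8, Itga1, Itga10 and Itga2b for the alpha chains and Itgb1bp1 for the partner. Their members were all probe sets that the platform annotation assigned to 1 of these genes alone, which gave 6 of the 11934 probe sets in the table. Itga1 had 2 probe sets and each of the other genes had 1.

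RNA of clone D16 and of clone D351 was hybridised to 1 array each, of the C array type of the murine U74 set. Mesoangioblasts are progenitors of mesodermal tissues that can be grown from the wall of embryonic vessels. Both clones came from explants of the dorsal aorta of C57BL6 embryos at embryonic day 9.5. They had been started on growth-arrested fibroblast feeders and later grown on gelatin, without any treatment or genotype that set them apart in the labels. Each group is a single clone on a single array, so no value has a replicate error, no p-value is given, and every difference is one between these 2 arrays and not between kinds of cell. As the RNA came from a whole culture, fewer cells carrying a transcript and less of it per cell cannot be told apart.

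An alpha chain pairs with a beta chain in the membrane, and the pair binds matrix proteins outside the cell and the actin skeleton inside it. The alpha chain largely sets the ligand. The product of Itga8 pairs with the beta1 chain, binds proteins with an RGD motif such as nephronectin and fibronectin, and is known from kidney development and from smooth muscle and other contractile mesenchymal cells. The product of Itga1 also pairs with beta1, binds collagens and laminins, and is found on smooth muscle and other mesenchymal cells. Itga10 encodes another collagen-binding partner of beta1, known from cartilage. Itga2b encodes the chain also called CD41, which pairs with beta3 as the fibrinogen receptor of platelets and marks early blood progenitors. Itgb1bp1 encodes ICAP-1, which binds the cytoplasmic tail of beta1, opposes its activation by talin and also binds KRIT1.

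The stretches upstream of the 3 alpha chain genes with a probe set past 2-fold (values below) are shown. Those of Itga8 and Itga10, with a probe set past 2-fold towards D351, can be set beside that of Itga1. For Itga1, 1 of its 2 probe sets was past 2-fold towards D16, and its brightest was under 2-fold. All 3 stretches are RefSeq sequences of build GRCm38.p6. They run from base 250 to base 51 before the annotated start, 5′ to 3′ on the strand of the gene. Itga8 lies on the minus strand at chr2:12301995-12302194, Itga10 on the plus strand at chr3:96645334-96645533 and Itga1 on the minus strand at chr13:115102015-115102214. Capitals mark matches to the E-box CANNTG and to the TEAD motif GGAATG, read on both strands.
Itga8: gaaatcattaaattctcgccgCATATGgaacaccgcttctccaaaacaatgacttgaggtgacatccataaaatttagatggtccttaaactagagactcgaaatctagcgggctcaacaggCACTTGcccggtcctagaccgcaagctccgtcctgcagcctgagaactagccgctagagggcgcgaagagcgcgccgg
Itga10: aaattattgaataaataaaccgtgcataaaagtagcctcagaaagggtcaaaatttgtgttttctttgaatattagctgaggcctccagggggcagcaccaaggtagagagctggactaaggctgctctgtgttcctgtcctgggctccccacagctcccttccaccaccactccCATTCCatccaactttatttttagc
Itga1: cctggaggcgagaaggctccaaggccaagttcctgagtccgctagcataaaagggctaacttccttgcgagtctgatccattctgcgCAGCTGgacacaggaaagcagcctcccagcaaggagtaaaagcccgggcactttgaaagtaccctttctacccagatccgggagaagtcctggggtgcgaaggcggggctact
The 200 bases of Itga8 held E-boxes from base 229 to 224 and from base 128 to 123 before the start. Those of Itga1 held 1 E-box, from base 163 to 158, and those of Itga10 held 1 TEAD match, from base 75 to 70, as CATTCC. None of the matches overlapped another. Of 32851 upstream stretches of the same length, 59.0% held an E-box and 10.7% the TEAD motif. The CArG box bound by serum response factor, present in 1.16% of all stretches, was not found in any of the 3 windows. The AP-1 motif TGANTCA, held by 5.57% of all stretches, was not found in them either. Nor was AGATAA, the letters of a GATA site, which 8.42% held. GGGCGG, the SP1 motif held by 24.6%, had no match, and neither had the ETS motif, spelled CCGGAA and held by 8.03%. These are matches of letters and the arrays hold no binding data.

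The median intensity was 6.5 on the D16 array and 6.2 on the D351 array. Intensities no higher than the median of both together, 6.4, are called dim and were set to this floor before taking log2, so a ratio with 1 dim value is a lower bound, written as "at least". The 19 negative controls, probe sets for transcripts of bacteria and yeast, reached 11.2, and values up to there lie within their range. The 9 hybridization control probe sets were brighter on the D16 array by a median of 1.59-fold (log2 ratio -0.67). Scaling to them moved the median log2 ratio of all measured genes from -0.02 to 0.58, so each direction below is relative to the bulk of the array. Where that scaling changes a call or a direction of a member, the value is given beside it.

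All 6 member probe sets were above the floor in at least 1 clone. Of these, 3 were at least 2-fold brighter in D351 (Itga8, Itga10 and Itgb1bp1), 1 was at least 2-fold brighter in D16 (a probe set of Itga1), and 2 were under 2-fold (the other probe set of Itga1 and that of Itga2b). Among all 6828 measured probe sets, 9.74% were at least 2-fold brighter in D351 and 9.75% in D16. Only Itga8 combined a large ratio with values well above background on both arrays. The other 3 calls each rested on a value between 22.5 and 23.9 on the brighter array and a value no higher than the negative controls on the dimmer one. Itga8 alone passed 2-fold once the floor was raised to 20.7, which is the upper quartile of all values.

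**Figure D1:**
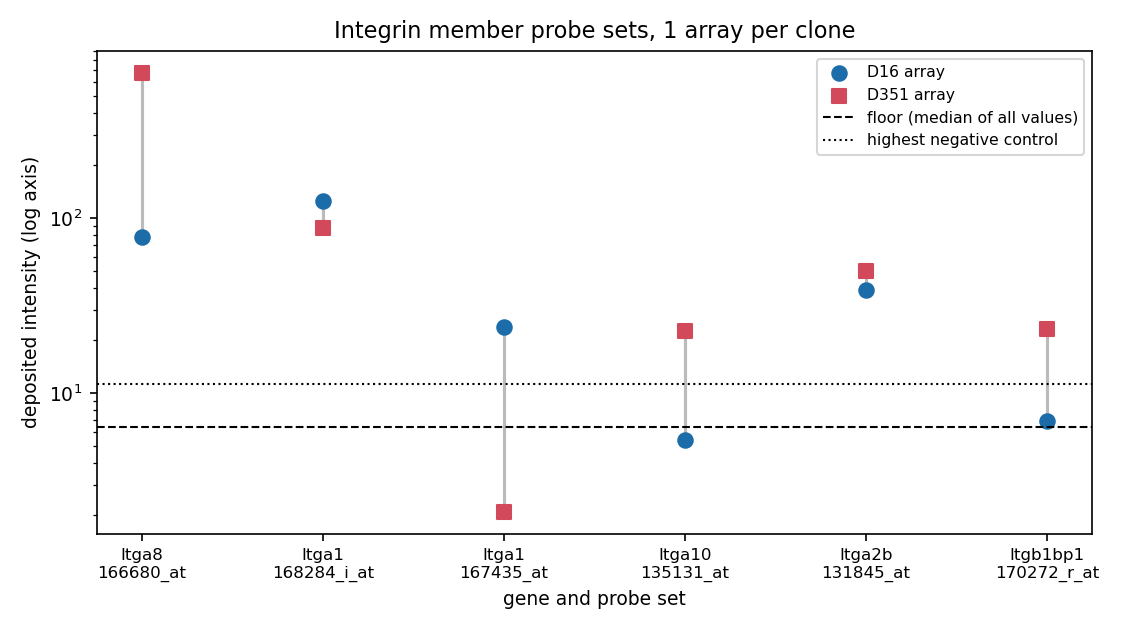
Deposited intensity (log axis) of the 6 member probe sets, with 1 point per array, circles for D16 and squares for D351. The dashed line is the floor of 6.4 and the dotted line the highest negative control, 11.2. Itga8 goes from 77.6 in D16 to 678 in D351, both far above the lines, whereas Itga10, Itgb1bp1 and probe set 167435_at of Itga1 each have 1 value in the range of the negative controls.

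Itga8 had the largest ratio among the member probe sets above the floor in both clones. Its probe set, 166680_at, read 77.6 in D16 and 678 in D351. The D16 value was 12.1 times the floor and the D351 value 106 times, so the transcript was well above background in both clones and much the brighter in D351. The ratio was 8.74-fold (log2 ratio 3.13). Of 3061 genes above the floor in both clones, 12 had a ratio towards D351 at least as large, Itga8 included. Over all measured probe sets, lower bounds included, 0.659% lay as far towards D351. Of the 228 measured probe sets whose mean log2 intensity lay within 0.5 of that of Itga8, 20.2% were past 2-fold in either direction and 2, Itga8 among them, lay as far towards D351. Under the 9 other settings that apply to a single probe set, the log2 ratio of Itga8 ran from 3.03 with a pseudocount to 3.80 with scaling to the hybridization controls. No second probe set of Itga8 was there to set beside it.

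**Figure D2:**
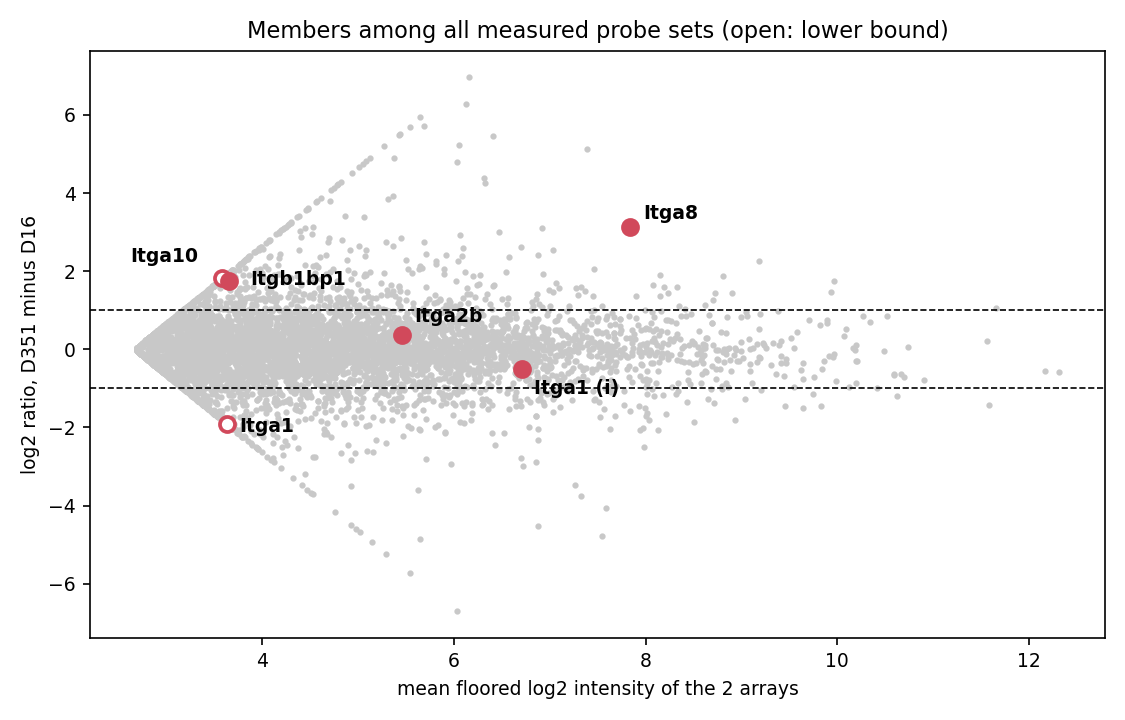
Log2 ratio (D351 minus D16) against mean floored log2 intensity of the 2 arrays for all 6828 measured probe sets (grey) and the 6 members (red, open where the ratio is a lower bound). Dashed lines mark 2-fold, and "Itga1 (i)" is probe set 168284_i_at. Itga8 lies apart from the grey cloud at its intensity, with a log2 ratio of 3.13, while Itga10, Itgb1bp1 and probe set 167435_at of Itga1 lie at the dim edge, on or beside the lines of points set by the floor.

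Itga1 leaned towards D16, but its probe sets gave unequal sizes. The brighter one, 168284_i_at, gave 125 for D16 and 87.6 for D351, and the 1.43-fold difference (log2 ratio -0.51) was under the 2-fold rule. Of the 504 probe sets near it in mean intensity, 21.4% lay as far towards D16, so a difference of this size was common. Its identifier carries the mark i, which denotes a probe set short of the standard selection. Probe sets with this or another such letter (f, g, i, r, s or x) in the identifier are called marked, whatever the letter denotes. Scaled to the hybridization controls its log2 ratio was 0.16, so the direction of this probe set depends on the scaling.

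The unmarked probe set of Itga1, 167435_at, read 23.9 in D16 and 2.1 in D351. The D351 value was dim and inside the range of the negative controls. The difference was at least 3.73-fold towards D16 (log2 ratio -1.90), and a floor of 11.2 gave at least 2.13-fold. A floor of 20.7 shrank the bound to a log2 ratio of -0.21. Of the 1868 probe sets dim in 1 clone, 13.6% were at least 2-fold brighter in D351 and 12.5% in D16, and of the 2022 near this one in mean intensity 34.0% passed in either direction. Scaling to the hybridization controls left it past 2-fold, at -1.56. The log2 ratios of both Itga1 probe sets thus differed by at least 1.39. Of 409 genes with more than 1 probe set above the floor in both clones, 12.2% had a brightest pair that differed by as much. The SD per probe set around its pair was 0.67. The Itga1 pair was not among them, as 167435_at was dim in D351. Its difference of 1.39 depends on the floor, so the comparison is not like for like. Where the probes lie in the transcript was not used here, and neither reading was preferred.

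Itga10 was not above the floor in D16. Its probe set, 135131_at, read 5.4 in D16 and 22.5 in D351, and was at least 3.52-fold brighter in D351 (log2 ratio 1.81). Against a floor of 11.2 the bound was 2.01-fold, just past the rule, and against 20.7 it was 0.12 on the log2 scale. Of 2086 measured probe sets of like mean intensity, 32.2% passed 2-fold in either direction and 3.60% lay as far towards D351. A transcript near background on 1 array and moderately above it on the other is therefore not unusual among probe sets this dim.

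Itga2b was above background in both clones at similar intensity. Its probe set, 131845_at, gave 38.7 for D16 and 49.9 for D351, and the 1.29-fold difference (log2 ratio 0.37) was under the 2-fold rule. Both values were above the range of the negative controls, at 6.05 and 7.80 times the floor. Of the 958 probe sets near it in intensity, 29.3% lay as far towards D351. Scaled to the hybridization controls its log2 ratio was 1.04, just past 2-fold, where 27.5% of all measured genes passed 2-fold towards D351 and 3.67% towards D16.

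Itgb1bp1, for the inhibitory partner of the beta1 tail, read 6.9 in D16 and 23.1 in D351 on probe set 170272_r_at. The D16 value was 1.08 times the floor, below the highest negative control, and the ratio was 3.35-fold towards D351 (log2 ratio 1.74). A floor of 11.2 gave a bound of 2.06-fold, and one of 20.7 a bound of 0.16 on the log2 scale. Of 1977 probe sets of like intensity, 35.4% passed 2-fold in either direction and 4.55% lay as far towards D351. The mark r in its identifier denotes relaxed probe selection, and no unmarked probe set measured the gene.

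**Figure D3:**
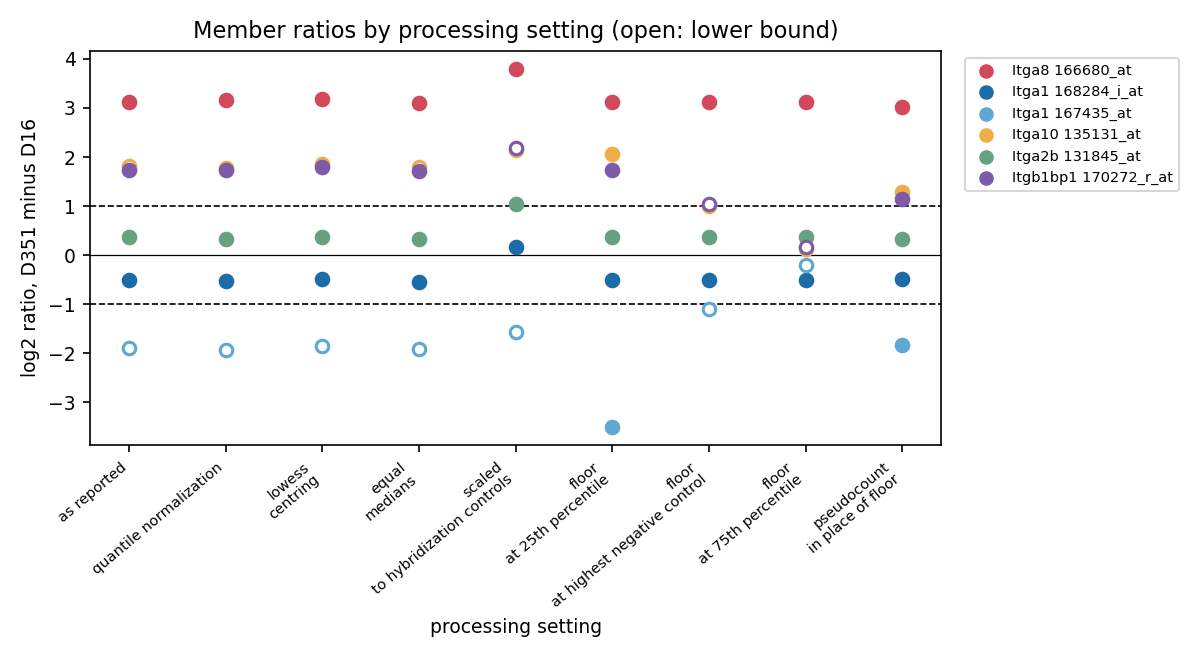
Log2 ratio (D351 minus D16) of each member probe set as reported and under 8 other settings, with open points where the ratio is a lower bound and dashed lines at 2-fold. Itga8 stays between 3.03 and 3.80 throughout. Itga10, Itgb1bp1 and probe set 167435_at of Itga1 drop to within 0.21 of 0 with the floor at the 75th percentile, and 168284_i_at crosses 0 with scaling to the hybridization controls.

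For each member above the floor in both clones, the nearest other named genes were listed, so Itga10 was left out. Likeness was measured as the distance over the 2 floored log2 intensities (D16 and D351) of brightest probe sets. Itga8 had no close neighbour, the nearest being Tmem185b at a distance of 0.933 (86.7 in D16 and 359 in D351), Ttc28 at 0.968 and Lynx1 at 1.20. The nearest to Itga1 were Lipg (0.117), Tomm70a (0.118) and Pank3 (0.125), and to Itga2b they were Celf1 (0.0551), Dnttip1 (0.0585) and Dnajb14 (0.0663). Nwd2 (0.0529), Kcnj2 (0.0642) and Anapc11 (0.109) lay nearest to Itgb1bp1. Anapc11 read 1.1 in D16 and was near only once raised to the floor. Probes differ in brightness for the same amount of RNA, so these are like readings and not like amounts.

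The beta chain with which 3 of the alpha chains pair was alike in both clones. Itgb1, the beta1 chain gene, stood at 124 on the D16 array and 131 on the D351 array, 1.06-fold apart. Of 27 integrin alpha and beta chain genes on the list, 6 had a named probe set, the members' 4 alpha chains, Itgb1 and Itgad. Itgad, an alpha chain of leukocytes, was dim in both, at 2.4 and 5.8. By brightest probe sets, 2 of the 5 measured chain genes (Itga8 and Itga10) were past 2-fold towards D351 and 0 towards D16, and the median log2 ratio was 0.37. Over all 3934 measured genes, 10.3% were past 2-fold towards D351 and 10.2% towards D16, with a median of -0.02. With unmarked probe sets alone, Itga1 was past 2-fold towards D16. The beta3 gene, whose product pairs with that of Itga2b, is not analysed here.

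Cytoplasmic partners of the integrins showed no common direction. The list holds proteins that bind integrin tails or link them to actin and kinases, and 24 of its 98 genes had a named probe set, of which 16 were measured. Beside Itgb1bp1, 0 genes were past 2-fold towards D351, and 2 passed towards D16. Flnc, the actin cross-linker filamin C, read 2385 in D16 and 1048 in D351, 2.27-fold brighter in D16. Trip6, a LIM protein of focal adhesions, read 13.1 in D16 and 5.5 in D351, at least 2.05-fold brighter in D16, and was dim in both against a floor of 20.7. Flnc and Trip6 were measured only by marked probe sets. The median log2 ratio of the 16 was 0.0047, with 8 above 0 and 8 below, including 4 lower bounds. Scaled to the hybridization controls the split turned to 4 towards D351 and 0 towards D16, with a median of 0.46, below the median of 0.58 of all genes under that scaling.

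Among the genes of the KRIT1 complex, to which ICAP-1 binds, Itgb1bp1 alone passed 2-fold. The list had 5 of its 17 genes on the array, all measured, with a median log2 ratio of 0.23. Krit1 itself stood at 189 (D16) and 179 (D351) on its brightest probe set and at 49.9 and 48.5 on another. The remaining one, unmarked, was near background at 3.6 and 9.2. The 2 brighter readings, both from marked probe sets, differed 1.05-fold and 1.03-fold between the clones.

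On a list wider than the ligands of the members, most of the few genes measured lay towards D351. Of the proteins with an RGD motif or linked to the RGD-binding chains, 9 of 38 had a named probe set and 5 were measured. By brightest probe sets 3 were past 2-fold towards D351 and 0 towards D16 (median log2 ratio 1.17). Of the 5, 2 were lower bounds and 3 were measured best by a marked probe set. Egfl6, a basement membrane protein that can bind the alpha8 beta1 receptor, read 8.7 in D16, no higher than the negative controls, and 50.5 in D351, on a marked probe set. Edil3, an RGD protein of the vessel wall, read 24.3 and 101, a 4.17-fold difference, and another of its probe sets read 15.7 and 37.8, in the same direction. Fbn2, the microfibril protein fibrillin 2, read 0.6 and 14.4, at least 2.25-fold brighter in D351, and was dim in both against a floor of 20.7. Fras1, a basement membrane protein of the developing kidney, was near background at 7.1 and 5.1.

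Among collagens, laminins and matrilins, the group that holds the ligands of the Itga1 and Itga10 products, 13 of 43 genes had a named probe set and 8 were measured. Of these, 5 were past 2-fold towards D351 and 0 towards D16, and the median log2 ratio was 1.19. Lamb1, the laminin beta1 chain, read 6.5 in D16, just above the floor, and 32.3 in D351 on an unmarked probe set. The collagen chains Col6a4 (9.7 and 69.6), Col5a1 (543 and 1838) and Col11a2 (13.0 and 31.0) were brighter in D351 as well. Of the 8, 6 were measured best by a marked probe set, and the unmarked probe sets of Col5a1 (1.1 and 2.1) and Col6a4 (11.5 and 4.4) did not show the difference. By brightest probe sets the ligand group for the collagen-binding chains thus lay towards D351. Itga1 by its brightest probe set was 1.43-fold towards D16, under the 2-fold rule. Scaled to the hybridization controls, that Itga1 log2 ratio was 0.16.

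**Figure D4:**
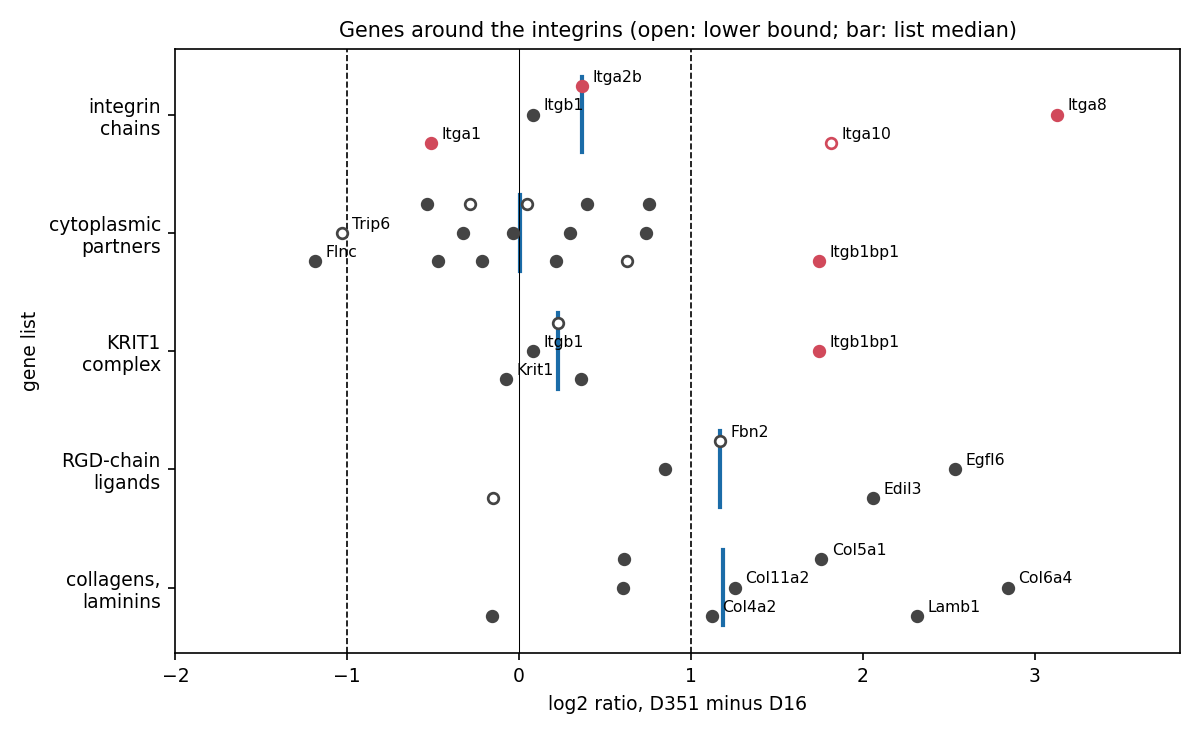
Log2 ratio (D351 minus D16) of each measured gene, by its brightest probe set, on the lists of integrin chains, cytoplasmic partners, the KRIT1 complex and the ligands, with members in red, open points for lower bounds, bars for list medians and dashed lines at 2-fold. Partners centre on 0.0047, and both ligand lists have medians above 1. A gene on 2 lists, such as Itgb1bp1, appears in each.

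Markers of the cell types in which the members are known were set beside them. Of the smooth muscle markers (smooth muscle differentiation is a keyword of the labels), most of those measured lay towards D351 like Itga8, and their part in its difference was not tested. Of 31 listed, 10 had a named probe set, 8 were measured and 5 were past 2-fold towards D351, none towards D16. Their median log2 ratio was 1.19, and all 10 had summed intensities of 258 in D16 and 810 in D351, or 255 and 522 without Lmod1. Lmod1, of smooth muscle thin filaments, read 2.6 in D16 and 288 in D351, Synpo2 24.7 and 105, and Ppp1r12a 60.2 and 149. The other 3 measured were under 2-fold, with Tpm1 (13.4 and 10.2) and Csrp1 (35.5 and 28.3) leaning towards D16 and Mrvi1 at 35.0 and 39.4. Pdlim7, a LIM protein of the actin skeleton, read 77.5 and 167 by its brightest probe set, but 30.6 and 22.2 by another. Acta2, the smooth muscle actin gene, read only 4.7 and 15.4, and Myocd, the coactivator that drives smooth muscle genes, was dim in both at 1.9 and 4.1.

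Markers of the embryonic fibroblasts that formed the feeder layer lay towards D351 as well. Of 24 listed, 5 had a named probe set. By brightest probe sets 4 were measured, all of them past 2-fold towards D351, while Col5a2 was dim in both at 0.7 and 0.2. The summed intensity of all 5 was 655 in D16 and 2355 in D351, most of it from Col5a1, at 543 and 1838. Mfap5 read 41.9 and 257, and Fgf10 25.8 and 123. Other probe sets of these genes did not pass 2-fold. They read 2.4 and 2.0 for Mfap5, 17.9 and 28.6 for Fgf10, and 1.1 and 2.1 for Col5a1. Whether fibroblasts were part of either RNA was not tested.

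Of the cartilage markers, Col11a2 alone passed 2-fold, towards D351 like Itga10. Of 24 listed, 9 had a named probe set and 5 were measured, with a median log2 ratio of -0.15 and summed intensities of 148 in D16 and 138 in D351. Col11a2 alone was past 2-fold. Sox9, the transcription factor of cartilage, read 93.1 and 97.7 by its brightest probe set. Its other probe sets leaned towards D16, at 25.9 and 18.0 and at 7.1 and 3.2. Cytl1 (11.4 in D16 and 0.7 in D351), Trps1 (8.7 and 3.8) and Cnmd (7.1 and 0.9) leaned towards D16 as well, each dim in D351. The cartilage matrix genes Comp, Matn3, Hapln1 and Col9a3 were dim in both clones.

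Few platelet and blood markers could be set beside the Itga2b reading. Of 25 platelet and megakaryocyte genes, 5 had a named probe set, and P2ry1 (18.4 in D16 and 30.9 in D351) and Nbeal2 (10.1 and 8.1) were measured, while Tubb1, Clec1b and P2ry12 were dim in both, between 0.1 and 2.2. Of 25 blood progenitor genes, 3 had one. Laptm5 read 18.8 and 19.4, above the range of the negative controls like P2ry1, Lyl1 read 6.9 and 1.4, and Vav1 was dim in both at 5.9 and 5.3. None of these markers was listed at 0, and 0 of the 4 measured were past 2-fold.

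Markers of endothelium and of mesoangioblasts themselves were few. Of 25 listed, 6 had a named probe set, so the labelled cell type could be checked only in part. Abcg2 was above background in both, at 77.0 in D16 and 46.9 in D351. Flt1, a VEGF receptor, read 1.3 in D16 and 87.6 in D351, Egfl7 read 19.5 and 3.8, Kdr, the other VEGF receptor on the list, read 1.6 and 9.5, and Sox17 and Sox18 were dim in both. Each of Flt1 and Egfl7 was thus above background in 1 clone alone, in opposite directions.

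**Figure D5:**
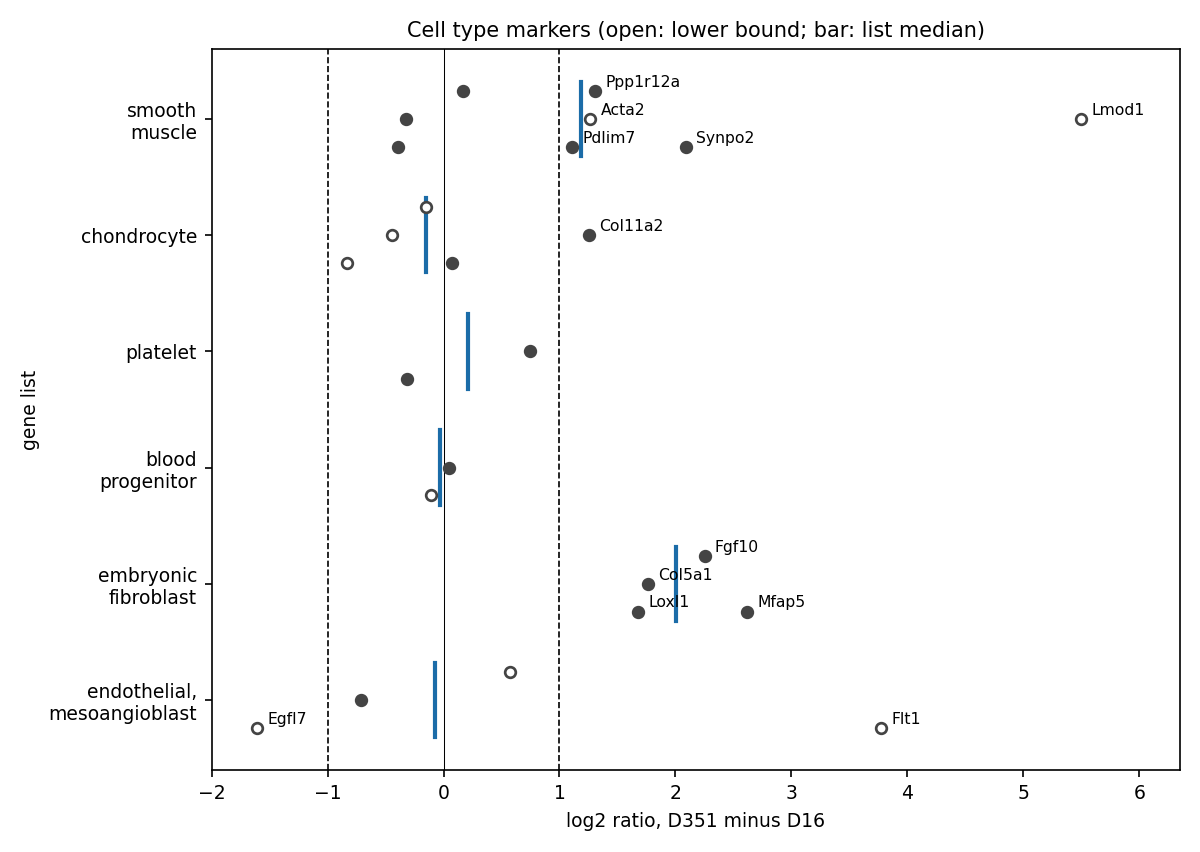
Log2 ratio (D351 minus D16) of each measured marker gene by cell type, with open points for lower bounds, bars for list medians and dashed lines at 2-fold. Each gene is shown by its brightest probe set. The 4 fibroblast markers and 5 of the 8 smooth muscle markers lie past 2-fold towards D351. The chondrocyte, platelet and blood progenitor markers lie within 2-fold, with Col11a2 as the exception.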

How the data were processed

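Total RNA of each clone was measured on 1 array, and the authors deposited 1 linear intensity per probe set. Which software and scaling made them is not given in the sources used here. The mean over probe sets, without the lowest and highest 2%, was 20.01 on both arrays, and the values were used as deposited. The 66 control probe sets were set aside, leaving 11868. Of these, 7717 had 1 gene symbol in the platform annotation, 150 several and 4001 none.

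Values were floored at the median of both arrays, log2 ratios were taken as D351 minus D16, and a 2-fold rule served in place of a test, since 2 arrays allow none. Their number limits the precision. Genes with several probe sets were read from the brightest (highest mean floored log2 value). The calling step was tested on simulated data, with changes added only to probe sets bright in D16. The noise added was smaller than the SD of 0.67 between probe sets of 1 gene. Recovery of changes near the floor was not tested. The members and gene lists were chosen with earlier results of these data known. All member probe sets were named. From the integrin lists up to 4 genes past 2-fold in each direction by size were named, from the cell type lists up to 3, or the 2 brightest where none passed, and for each member above the floor in both clones the 3 nearest genes. Itgb1, Itgad, Krit1, Fras1, Acta2, Myocd, Pdlim7, Tpm1, Csrp1, Mrvi1, Sox9, Cytl1, Trps1, Cnmd, Kdr, Abcg2 and the dim markers were added after their values were seen.

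Alternatives were quantile normalization, lowess centring (span 0.3), equal medians, scaling to the hybridization controls, floors at the 25th and 75th percentiles, a pseudocount, a 3-fold rule, unmarked probe sets and the mean over probe sets. A floor at the highest negative control was added after seeing the data. All 5 members matched a RefSeq upstream sequence. The work was done in Python 3.11.15 (pandas 2.3.3, numpy 2.4.6, statsmodels 0.14.6, matplotlib 3.10.9, scipy 1.17.1).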

Additional observations from a re-analysis of the deposited data

How the results depend on the processing

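No paired analysis was possible because each clone had 1 array. No call among the members reversed its direction under the settings tried, and Itga8 kept its side of 2-fold in all of them. At a floor of the 75th percentile, the log2 ratios fell short of 2-fold for Itga10 (0.12), Itgb1bp1 (0.16) and probe set 167435_at of Itga1 (-0.21). Member probe sets past 2-fold then numbered 1 towards D351 and 0 towards D16, integrin chains towards D351 1, partners 0 and 1, and collagens and laminins towards D351 3. At the highest negative control the same 3 probe sets gave 1.01, 1.04 and -1.09, and 1 partner passed towards D16. At the 25th percentile probe set 167435_at gave -3.51. Of 23 partners then measured, 4 passed towards D351 and 3 towards D16. Of the RGD-chain ligands 3 passed towards D351 and 1 towards D16, with a median of 0.25. Among collagens and laminins 5 passed towards D351 and 3 towards D16. These shifts follow from where dim values are set.

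Scaling to the hybridization controls took Itga2b to 1.04 and the partners to 4 towards D351 and 0 towards D16. With unmarked probe sets 1 integrin chain, Itga1, passed towards D16, 0 partners passed in either direction, and 1 RGD-chain ligand and 2 collagens or laminins passed towards D351. With the mean over probe sets 1 integrin chain passed towards D16 and 2 partners towards D351. Towards D16, partners numbered 1 with lowess centring, 1 with a pseudocount and 0 with the 3-fold rule, under which 3 collagens or laminins passed towards D351. The cause of these was not tested.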

Other observations

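Itgbl1, a gene for a secreted protein that resembles the beta chains and is no receptor chain, read 15.3 in D16 and 24.9 in D351, 1.63-fold brighter in D351. Of 22 membrane proteins that associate with integrins, 4 had a named probe set and 2 were measured. Slc3a2, the CD98 heavy chain that binds beta chain tails, read 21.6 in D16 and 9.5 in D351, 2.27-fold brighter in D16, and a floor of 20.7 left a bound of 1.04-fold. The syndecan gene Sdc4 was near background, at 8.5 and 5.3, and the tetraspanin gene Cd82 was dim in both clones.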
